A study of Danio rerio with 5 samples.

Results

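The change in circular RNAs (circRNAs) of whole wild-type zebrafish embryos between 72 and 48 hours post fertilization (hpf) was measured from back-splice junction reads, with 1 library at each age. The embryos were of the strain labelled Tubingenz and came from spontaneous matings. The labels call the stage at 72 hpf incubation and that at 48 hpf throat, and both libraries were made from total RNA depleted of ribosomal RNA, as stranded libraries. A circRNA was compared where it had at least 10 junction reads over both libraries, with a position that a library did not list taken as 0 reads. This rule gave 426 circRNAs, of 4227 listed at 72 or 48 hpf and 9559 in the 5 libraries of the series. Of the 426, 321 were listed in both libraries, 59 at 72 hpf only and 46 at 48 hpf only. The other ages of the series, 4.5, 8 and 24 hpf, served only to show where the same positions had reads before.

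A circRNA forms when the splicing machinery joins the end of an exon back to the start of the same or an upstream exon, and the read that crosses this joint identifies it. Having no free ends, circRNAs resist exonucleases and outlast most linear transcripts of their genes, and in animals many accumulate in the nervous system. Between these ages the zebrafish embryo hatches, its skeletal muscle and heart are already contracting, and neural circuits and sense organs are maturing. Genes are not named here, because the host genes of the positions were not analysed. In RNA from a whole embryo, more cells of a type and more RNA per cell cannot be told apart. How well either library represents its labelled stage was not tested.

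The 72 hpf library held more junction reads. It listed 2252 circRNAs with 19036 reads, and the 48 hpf library listed 2547 with 15850 reads. By the authors' constants the 72 hpf library was 0.832 times as deep, and at that depth 2181.5 of the 48 hpf circRNAs were expected to be listed, slightly fewer than at 72 hpf. Only 572 positions were listed in both, against 1680 at 72 hpf only and 1975 at 48 hpf only. Most of these had very few reads, with a median of 3 in each library and 949 circRNAs at 72 hpf and 1032 at 48 hpf at exactly 2 reads, the lowest value listed. Levels are given in SRPBM, the authors' score, which is the read count times 1 constant per library. The constant was 0.122 at 72 hpf and 0.102 at 48 hpf, so a read at 72 hpf counted 1.20 times as much, and this scaling is called depth scaling here. Ratios are 72 over 48 hpf in SRPBM, with exact conditional Poisson intervals at 95% in brackets. These intervals cover counting error only and treat each read as a molecule of its own, which PCR duplicates are not. With 1 library an age, no difference has a replicate check and none was tested.

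Junction reads on the whole were higher at 72 hpf, and a large part of the excess came from 1 place in the genome. Summed levels were 2329 SRPBM at 72 hpf and 1613 SRPBM at 48 hpf, a ratio of 1.44 (1.41 to 1.47) with depth scaling, which scaling to total reads sets to 1. A region of chromosome 5, chr5:31666036-31708780, made up 52.3% of the difference of 716 SRPBM, and scaffold KN150127.1 made up 10.7%. Outside these regions the sums were 1702 SRPBM at 72 hpf and 1437 SRPBM at 48 hpf, a ratio of 1.18 (1.16 to 1.21). The circRNAs with fewer than 10 reads over both libraries summed to about the same level, 682 SRPBM at 72 hpf and 690 SRPBM at 48 hpf (ratio 0.988, 0.954 to 1.02). With depth scaling the difference lay in the 426 more abundant circRNAs, which held 70.7% of the reads at 72 hpf and 57.2% at 48 hpf. They were chosen by their reads in these same libraries, 59 through 72 hpf alone and 46 through 48 hpf alone. Where the difference lay is therefore in part set by this rule.

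Of the 426 circRNAs, 146 (34.3%) had a level at 72 hpf that was 2-fold or more above that at 48 hpf, and 94 (22.1%) one that was 2-fold or more below it, together 56.3%. These counts mix a pair of situations. A circRNA with 10 reads in one library and no listing in the other passes a 2-fold difference by construction, since its ratio was set with 3 reads for the missing library. All 59 listed at 72 hpf only and all 46 listed at 48 hpf only were therefore called, and their number is no evidence of change. The 321 listed in both libraries have a measured ratio. Among them 87 (27.1%) were higher, 48 (15%) were lower, together 42.1%, and 186 lay within 2-fold. With scaling to total junction reads, 98 of the 426 were higher and 126 lower, and with TMM 126 were higher and 108 lower.

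**Figure D1:**
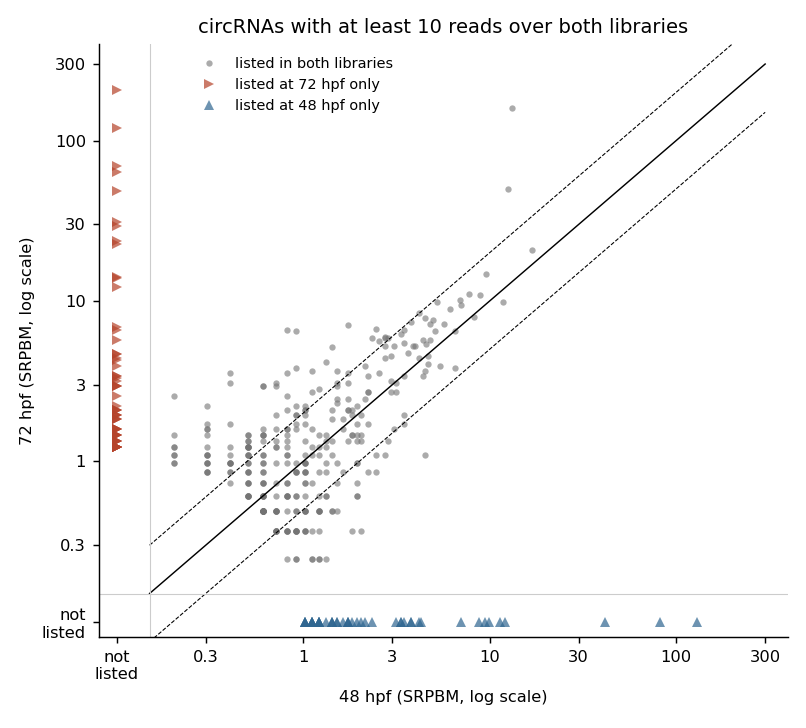
Level at 72 hpf against level at 48 hpf, both in SRPBM on log scales, for the 426 circRNAs with at least 10 reads over both libraries. Grey points are the 321 listed in both, triangles at the margins are the 59 listed at 72 hpf only and the 46 listed at 48 hpf only, the solid line marks equal levels and the dashed lines a 2-fold difference. Of the grey points, 186 lie between the dashed lines. The highest triangle, at 207 SRPBM at 72 hpf, stands above every grey point.

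The circRNAs present at both ages lay within 2-fold more often than not, and the sign of their median depended on the scaling. Their median ratio was 1.20 (95% order-statistic interval 1.07 to 1.35), which is the ratio of a circRNA with equal read counts in both libraries. The middle 50% lay between 0.726 and 2.10, and the extremes were 12.6 and 0.180. The log2 median was 0.27 with depth scaling, 0.01 with TMM scaling, and was -0.26 when each library was scaled to its total junction reads, where the direction turned. Those scalings remove 0.25 and 0.53 from every log2 ratio. With scaling to totals, 39 of the 321 were higher and 80 lower, so 32.8% of the calls were higher, against 64.4% with depth scaling and 51.9% with TMM. Scaling to the reads outside the leading regions of chromosome 5 and scaffold KN150127.1 gave a log2 median of 0.02.

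Counting error alone is large for many of these circRNAs. Of the 87 higher ones, 34 had fewer than 5 reads at 48 hpf, and of the 48 lower ones, 35 had fewer than 5 reads at 72 hpf. The interval excluded 1 for 45 of the 87 and for 14 of the 48. Set against the median of the 321 instead of against 1, 38 intervals lay wholly above it and 26 wholly below. With depth scaling the ratio also moved with abundance. The abundance classes use the same reads as the ratio, so this is a description and no independent result. Another scaling shifts all classes alike, so which class lay near 1 depends on it. The 169 circRNAs with 10 to 19 reads over both libraries had a median ratio of 1.00 (0.842 to 1.20), with 47 higher and 35 lower. The 60 with 50 or more reads had a median of 1.44 (1.27 to 1.60), with 13 higher and 1 lower. Across the 321, levels at both ages had a Spearman rho of 0.478 and a Pearson r of 0.613 on the log2 scale, as a description across circRNAs that share both libraries.

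The highest ratios among circRNAs listed in both libraries, ranked by their interval, included 1 very abundant short circRNA and several very long ones. The short one was chrKN150127.1:3657-4045, spanning 388 bp, with 1312 reads at 72 hpf and 129 reads at 48 hpf, 12.2-fold higher (10.2 to 14.8). It was the second most abundant circRNA at 72 hpf, with 6.89% of the reads, against 0.814% at 48 hpf. At 4.5, 8 and 24 hpf it had 22, 4398 and 4 reads, so its level moved up and down over the series. The circRNA of chr14:3014852-3094752 spanned 79900 bp and had 54 reads at 72 hpf and 8 reads at 48 hpf, 8.11-fold higher (3.84 to 19.7). That of chr22:33699626-33725508 had 53 reads at 72 hpf and 9 reads at 48 hpf, 7.08-fold higher (3.46 to 16.3). Both had at most 7 reads at 4.5, 8 and 24 hpf.

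Among the higher ones were also spans over 100 kb. The circRNA of chr24:37086321-37388923 spanned 302602 bp and had 29 reads at 72 hpf and 4 reads at 48 hpf, 8.72-fold higher (3.06 to 34.1). That of chr25:9696010-9990352 spanned 294342 bp and had 25 reads at 72 hpf and 4 reads at 48 hpf, 7.51-fold higher (2.59 to 29.7). On chr7:68832582-68904333, a shorter span of 71751 bp, the counts were 21 reads at 72 hpf and 2 reads at 48 hpf. This position had no reads at the 3 earlier ages. Of the 10 higher circRNAs chosen by their interval, 6 spanned more than 50 kb, and of the 10 lower ones none did, against 42 of all 321 listed in both (13.1%, 9.60 to 17.3). Ranking by the interval favours abundant circRNAs, and those over 50 kb had a median of 35 reads over both libraries, against 18 for all 321. A pair of the long ones had been abundant before. On chr15:46764879-46940981 there were 197, 31, 0, 17 and 58 reads at 4.5, 8, 24, 48 and 72 hpf, 4.10-fold higher at 72 than at 48 hpf (2.36 to 7.51). On chr25:413673-531318 there were 41, 3, 12, 8 and 29 reads at the same ages.

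The lower circRNAs listed in both libraries rested on fewer reads. The first by its interval was chrKN150122.1:30659-34178, with 9 reads at 72 hpf and 44 reads at 48 hpf, a ratio of 0.246 (0.106 to 0.510). At 24 hpf it had 14 reads and at 8 hpf 3 reads, so 48 hpf was its highest age. On chr3:36327770-36330690 there were 3 reads at 72 hpf and 20 reads at 48 hpf, a ratio of 0.180 (0.0343 to 0.608), and on chr23:2425381-2435690 there were 3 reads at 72 hpf and 18 reads at 48 hpf. On chr9:3492685-3493894 there were 7 reads at 72 hpf and 24 reads at 48 hpf, and on chr25:31233833-31237158 there were 9 and 27 reads at those ages. In the other lower ones chosen by their interval the count at 72 hpf was 2 or 5 reads. Among the 60 circRNAs with 50 or more reads, the scaffold KN150122.1 circRNA was the only one lower by 2-fold.

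Median ratios were higher for spans over 20 kb than for shorter ones, although the intervals overlapped. Among those listed in both libraries, the 30 with spans over 100 kb had a median ratio of 1.85 (1.23 to 2.18), with 13 higher and 1 lower. The 40 with spans from 20 to 100 kb had a median of 1.49 (1.14 to 2.40), with 15 higher and 4 lower. From 5 to 20 kb the median was 1.08 (0.935 to 1.44), with 14 higher and 13 lower of 83. From 2 to 5 kb it was 1.14 (0.801 to 1.41), with 26 higher and 17 lower of 90. From 0.5 to 2 kb it was 1.18 (0.945 to 1.40), with 14 higher and 7 lower of 55. Under 0.5 kb it was 0.801 (0.515 to 1.74), with 5 higher and 6 lower of 23. With scaling to total reads the medians were 1.28 over 100 kb (0.852 to 1.51), 1.03 from 20 to 100 kb and 0.746 from 5 to 20 kb, since a scaling moves all classes alike. Abundance moved with span, and its part in the difference was not tested. Median reads over both libraries were 35.5 over 100 kb, 30 from 20 to 100 kb and 15 from 5 to 20 kb. Among circRNAs with at least 20 reads, medians were 1.75 over 100 kb, 1.49 from 20 to 100 kb and 1.34 from 5 to 20 kb. They were 1.29 from 2 to 5 kb, 1.13 from 0.5 to 2 kb and 1.41 under 0.5 kb, the last from 8 circRNAs.

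**Figure D2:**
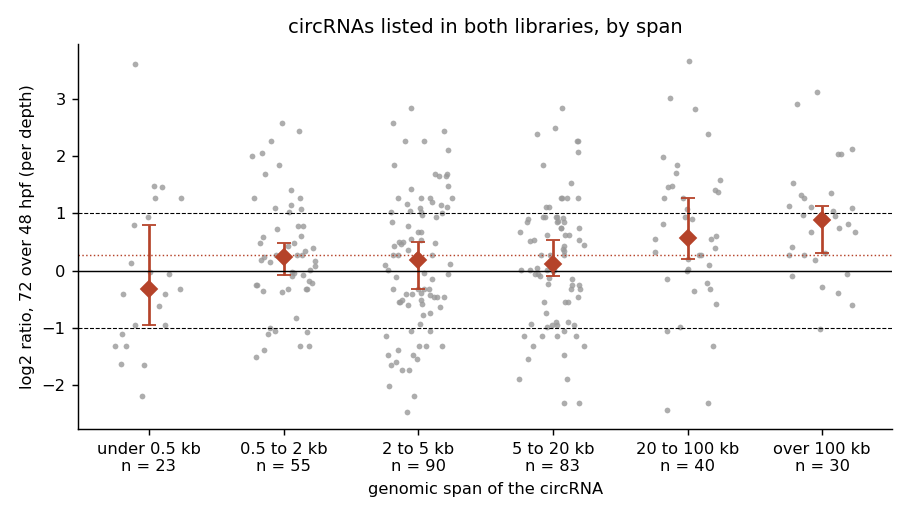
The log2 ratio of 72 over 48 hpf, with depth scaling, for the 321 circRNAs listed in both libraries, by the genomic span between their ends. Grey points are circRNAs, diamonds are medians with 95% order-statistic intervals, the dotted line is the median of all 321, and the dashed lines mark 2-fold. The diamonds of the classes from 20 to 100 kb and over 100 kb, at ratios of 1.49 and 1.85, lie above the dotted line at 1.20.

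Summed over all circRNAs of the libraries, the ratio did not rise steadily with span, and a few positions set several of the class totals. Spans over 100 kb summed to 148 SRPBM at 72 hpf and 87.8 SRPBM at 48 hpf, 1.68-fold (1.54 to 1.84). The single circRNA chr25:8118429-8316115, listed at 72 hpf only, gave 14.1 SRPBM of the sum at that age. Regions hold only spans of 50 kb or less. Leaving out the regions of chromosome 5 and scaffold KN150127.1 with most reads therefore could not change this ratio. Spans from 5 to 20 kb summed to 978 SRPBM at 72 hpf and 405 SRPBM at 48 hpf, 2.41-fold with those regions and 1.41-fold (1.35 to 1.47) without them. Spans under 0.5 kb were 1.71-fold higher with them and had a ratio of 0.700 (0.640 to 0.765) without them, and for spans from 2 to 5 kb the ratios were 0.925 and 1.37. Spans from 0.5 to 2 kb summed to 214 SRPBM at 72 hpf and 333 SRPBM at 48 hpf, a ratio of 0.643 (0.607 to 0.682). Of the sum at 48 hpf, chr3:18251099-18253055 gave 81.8 SRPBM and chr10:29964129-29964982 gave 41.3 SRPBM, both listed at 48 hpf only. The 55 compared circRNAs of this class listed in both libraries had a median ratio of 1.18, so the low sum is not read as a feature of the class.

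Of the 87 higher at 72 hpf, 55.2% were listed at 24 hpf (Clopper-Pearson 44.1 to 65.9), against 70.8% of the 48 lower ones (55.9 to 83.0) and 72.6% of the 186 within 2-fold (65.6 to 78.9). At 4.5 hpf the shares were 34.5%, 31.2% and 50% in that order of higher, lower and within 2-fold. No reads at any earlier age were listed for 26 of the 87, 8 of the 48 and 34 of the 186. The intervals of the higher and lower circRNAs overlapped at each of these ages.

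A circRNA with more reads in one library was more often listed in the other, except at the top. The 48 hpf library listed 12% of the circRNAs that had exactly 2 reads at 72 hpf, and the share reached 71.8% at 10 to 19 reads, 80% at 20 to 49 and 91.7% at 50 to 99 (22 of 24). Of the 16 circRNAs with 100 or more reads at 72 hpf, only 4 were listed at 48 hpf (25%, 7.27 to 52.4). The 48 hpf library showed the same shape, with 78.2% at 10 to 19 reads, 83.1% at 20 to 49, 76.5% at 50 to 99 (13 of 17) and 4 of 9 at 100 or more (44.4%, 13.7 to 78.8). These intervals take the circRNAs as independent, although in the top class of each library several share a region. Counting the other library as positive where any circRNA of the same region was listed raised the top class to 9 of 15 for 72 hpf and 8 of 9 for 48 hpf, spans over 50 kb left out.

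**Figure D3:**
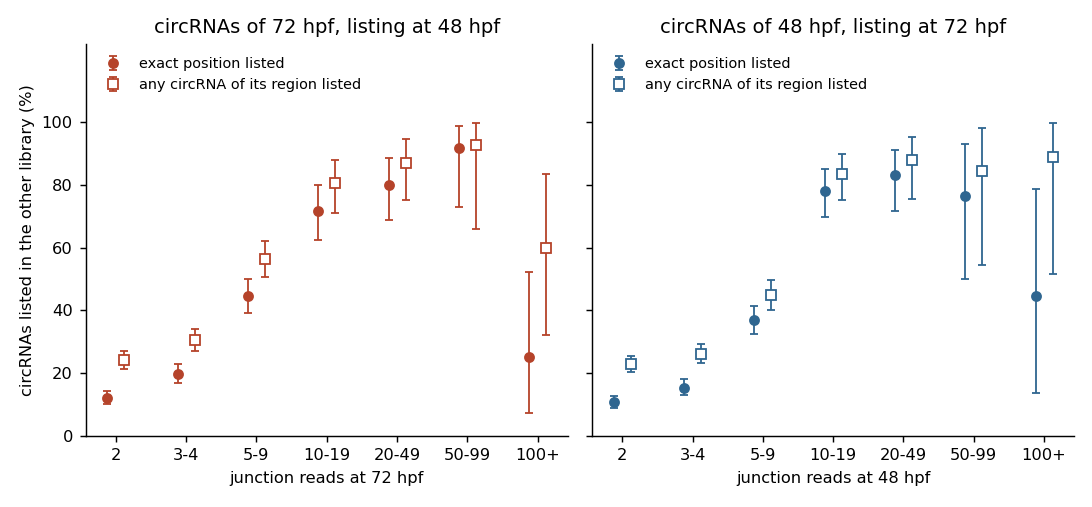
Percent of the circRNAs of one library that the other library listed, by junction reads in the first, with exact 95% Clopper-Pearson intervals. The left panel starts from 72 hpf and the right from 48 hpf, filled circles require the exact position, and open squares accept any circRNA of the same region. At 100 or more reads the filled circles drop to 25% for 72 hpf and 44.4% for 48 hpf.

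The circRNAs listed in 1 of the libraries had between 10 and 1689 reads at 72 hpf and between 10 and 1275 at 48 hpf, with a median of 17 in each. They held 33.0% of all reads at 72 hpf and 23.7% at 48 hpf. At least 50 reads were found for 14 of the 59 and for 9 of the 46. The 72 hpf ones had a median span of 15388 bp (8862 to 18879) and the 48 hpf ones 3200.5 bp (1757 to 12264). These intervals overlap and take the circRNAs as independent, although several at each age share a region. The compared circRNAs listed in both libraries had a median span of 4682 bp (4047 to 5575). Earlier ages listed 22 of the 59 at 72 hpf, 13 of them with 10 or more reads, and 9 of the 46 at 48 hpf, 2 of them with 10 or more. For 37 of the 59 and 37 of the 46 there was no earlier listing. Spans over 50 kb, which enter no region, were 9 of the 59 and 5 of the 46. The most abundant of these at 72 hpf was chr25:8118429-8316115, spanning 197686 bp, with 115 reads at 72 hpf only, and at 48 hpf it was chr1:58724086-58783408, with 93 reads at 48 hpf and 119 at 24 hpf.

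Some of these positions had a relative in the other library and many had none. A relative was a circRNA with an identical start or end, one with a span within 5% starting within 100 kb, or, for spans of 50 kb or less, one that overlapped. Of the 59 listed at 72 hpf only, 22 had a relative at 48 hpf, and of the 46 listed at 48 hpf only, 16 had one at 72 hpf. The 22 held 4247 of the 6282 reads and the 16 held 2198 of the 3757. Identical ends were shared by 9 of the 59 and 4 of the 46, and like spans by 4 and 6. Joining positions whose ends both lay within 10 bp matched none of them. The remaining 37 at 72 hpf and 30 at 48 hpf, with 2035 and 1559 reads, had no relative by these criteria. How often circRNAs in general had a relative in the other library was not counted, so these counts are not read as a feature of the positions.

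Summing over overlapping circRNAs with spans of 50 kb or less gave 3408 regions, of which 399 had at least 10 reads over both libraries. Of these, 113 (28.3%) were at least 2-fold higher and 94 (23.6%) lower with depth scaling, together 51.9%. These calls were closer in number than the 146 higher and 94 lower of single positions. With scaling to total reads, region calls were further apart, with 75 higher and 135 lower against 98 and 126 for single positions. Regions also leave out 56 of the compared circRNAs, those with spans over 50 kb. With a limit of 100 kb instead, 130 regions were higher and 100 lower, and with 20 kb, 98 were higher and 82 lower. The limit also changes which circRNAs are merged, and how much of the narrowing came from the cut alone was not tested. The 331 regions with reads in both libraries had a median ratio of 1.09 (0.962 to 1.20), with 78 higher and 61 lower. The split turned with the scaling, with 97 higher and 113 lower with TMM and 75 higher and 135 lower when scaled to total reads. Regions without reads in the other library numbered 35 at 72 hpf and 33 at 48 hpf and held 2257 and 1559 reads. As with single positions, all of these were called by construction and are counted in the 113 and 94. Their number is no evidence of change. In the 170 regions of more than 1 circRNA, 38 were higher and 47 lower, and in the 229 of a single circRNA 75 were higher and 47 lower.

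Region sums left most single calls in place, in part because many regions hold a single circRNA, whose call is then also that of its region. Of the 50 called circRNAs listed at 72 hpf only that had a span of 50 kb or less, 46 lay in a region that was also higher, 3 in a region within 2-fold and 1 in a region that was lower. Of the 41 at 48 hpf only, 33 lay in a lower region, 5 in one within 2-fold and 3 in a higher one. Of the 115 called among those listed in both, 104 lay in a region called the same way, 11 in one within 2-fold and none in one called the other way. In regions of more than 1 circRNA, where the region's call could differ, 61 of 84 called circRNAs lay in a region called the same way. The region sum there still includes the reads of the called circRNA itself, so this share is no independent check of the single calls. There were 6 regions that held circRNAs called in both directions.

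The chromosome 5 region chr5:31666036-31708780 had the largest difference in reads. There were 3181 reads at 72 hpf (389 SRPBM) and 146 reads at 48 hpf (14.9 SRPBM), 26.2-fold higher (22.2 to 31.1), and it made up 16.7% of the reads at 72 hpf and 0.921% at 48 hpf. The log2 ratio was 4.71 with depth scaling, 4.46 with TMM and 4.18 with scaling to total reads. At 24 hpf the region had 327 reads, and at 4.5 and 8 hpf none. Its make-up differed as well. The circRNA chr5:31666036-31700665, the only one of the region listed at both ages, had 408 reads at 72 hpf and 123 reads at 48 hpf, 3.99-fold higher (3.25 to 4.92), yet it held only 12.8% of the region's reads at 72 hpf (11.7 to 14.0), against 84.2% of them at 48 hpf (77.3 to 89.7). At 72 hpf, chr5:31688205-31704934 had 53.1% of the region's reads, chr5:31690705-31707442 had 30.9% and chr5:31692780-31708780 had 3.14%, and none of the 3 was listed at 48 hpf. The first of these, with 1689 reads, was at least 364-fold higher as an exact position, while its region was 26.2-fold higher. The value of 364 is the lower limit of the interval, with 1 read set for 48 hpf.

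Some circRNAs of like span in this region differed by near-parallel shifts of both ends. The pair with most reads at 72 hpf had starts 2500 bp apart and ends 2508 bp apart, with spans that differed by 8 bp. The leading circRNA at 24 hpf, chr5:31690298-31707047 with 264 reads, started 2093 bp after the first of them and 407 bp before the second, and its span differed from theirs by 20 and 12 bp. The longest circRNA of 48 and 72 hpf had a counterpart listed at 48 hpf only, chr5:31669424-31703967 with 20 reads, whose ends lay 3388 and 3302 bp further on. Whether the shifted pairs come from distinct junctions was not tested.

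**Figure D4:**
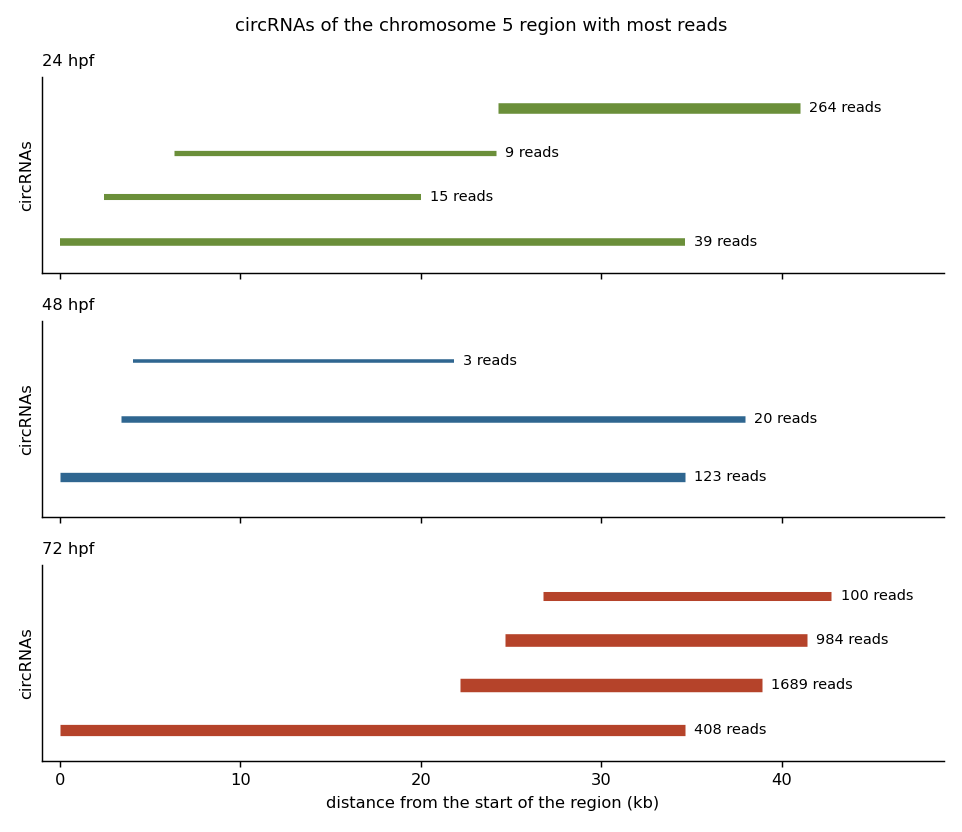
The circRNAs of the chromosome 5 region with most reads at 24, 48 and 72 hpf, drawn as bars from their start to their end in kilobases from the start of the region, with thickness growing with the log of the reads. The bar of 39, 123 and 408 reads is at the same place in all 3 panels, and the bars of 1689 and 984 reads at 72 hpf have nearly the length of the bar of 264 reads at 24 hpf but other positions.

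A neighbouring region, chr5:31608607-31655894, differed in the same direction. It had 216 reads at 72 hpf and 17 reads at 48 hpf, 15.3-fold higher (9.32 to 26.7). The reads at 72 hpf lay on chr5:31608607-31624467 with 192 and chr5:31616110-31632340 with 24. Those at 48 hpf lay on chr5:31616110-31655894, which has the start of the second of these with another end. At 24 hpf an overlapping circRNA, chr5:31608475-31624343, had 36 reads, with its start 132 bp before that of the leading one at 72 hpf.

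On scaffold KN150127.1 the total was within 2-fold while different circRNAs led at each age. The region had 1942 reads at 72 hpf and 1585 reads at 48 hpf, a ratio of 1.47 (1.38 to 1.57) with depth scaling and a log2 ratio of 0.029 with scaling to total reads. At 72 hpf, 67.6% of these reads were on 3657-4045 (65.4 to 69.6) and 29.1% on 3657-22829 (27.1 to 31.2). At 48 hpf, 3657-4045 had 8.14% (6.84 to 9.60), and 80.4% were on 6486-9445 (78.4 to 82.4), with 7.07% on 3657-6633 and 4.35% on 6486-13009. These shares are free of the scaling between libraries. The start at 3657 was used at both ages, at 72 hpf with ends at 4045, 13394 and 22829 and at 48 hpf with ends at 4045 and 6633. The position 6486-9445 had 1275 reads at 48 hpf and was not listed at 72 hpf, at least 190-fold lower, while the region as a whole was not lower.

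Several other regions had all or nearly all of their reads at 1 of the ages. Of the 10 higher regions ranked first by their interval, 8 had no reads at 48 hpf, against 35 of all 113 higher regions. The ranking set such regions at 1 read at 48 hpf and so favours them. The circRNA of chr14:3395835-3406037, with 517 reads at 72 hpf (63.2 SRPBM), was at least 111-fold higher and had no reads in its region at any other age. The same held for chr4:379926-384171, with 394 reads and at least 84.5-fold higher, although a circRNA of like span within 100 kb had 4 reads at 48 hpf. For chr23:35611270-35616264, with 240 reads and at least 51.3-fold higher, an overlapping circRNA had 6 reads at 24 hpf. On chr19:5452012-5463136 there were 184 reads at 72 hpf, at least 39.2-fold higher, and an overlapping circRNA had 2 reads at 24 hpf.

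A further pair of the higher regions had reads at both 8 and 24 hpf, none at 48 hpf and more at 72 hpf. The region chr3:31968704-32008945 had 0, 36, 205, 0 and 275 reads at 4.5, 8, 24, 48 and 72 hpf, overlapping circRNAs included. It was at least 58.8-fold higher at 72 than at 48 hpf. Within it, chr3:31968704-31994174 had 202 reads at 24 hpf and 254 at 72 hpf at the identical position. The region chr8:21058484-21068075 had 0, 71, 22, 0 and 114 reads at those ages and was at least 24.1-fold higher.

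Lower regions included several with spans under 2 kb, and others were longer, such as chr2:43730461-43750048 (19587 bp) and chr23:30011539-30025334 (13795 bp). Short ones were also among the 10 higher regions, namely chr7:29689001-29689068 (67 bp) and chr9:23039938-23041079 (1141 bp). On chr3:18251099-18253055 there were no reads at 72 hpf and 804 reads at 48 hpf (81.8 SRPBM), at least 120-fold lower. An overlapping circRNA had 2 reads at 24 hpf. The region chr10:29964129-29964982 had 2 reads at 72 hpf and 406 reads at 48 hpf, a ratio of 0.00592 (7.15e-04 to 0.0215). On chr6:39312373-39313067 there were no reads at 72 hpf and 100 at 48 hpf, and on chr19:41413107-41413353 none and 86. The region chr4:76321360-76324077 had 1 circRNA with 2 reads at 72 hpf and 7 circRNAs with 72 reads at 48 hpf, a ratio of 0.0334 (0.00397 to 0.125), and overlapping circRNAs had 12, 167 and 17 reads at 4.5, 8 and 24 hpf. On chr23:3635451-3641514 there were 13 reads at 72 hpf on 1 circRNA and 159 reads at 48 hpf on 4 others, a ratio of 0.0983 (0.0512 to 0.173). Of the 10 lower regions ranked first by their interval, 8 had fewer than 10 reads at the earlier ages together. The same held for 6 of the 10 higher regions. The share among all regions was not counted, so neither count is read as a feature of its group.

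**Figure D5:**
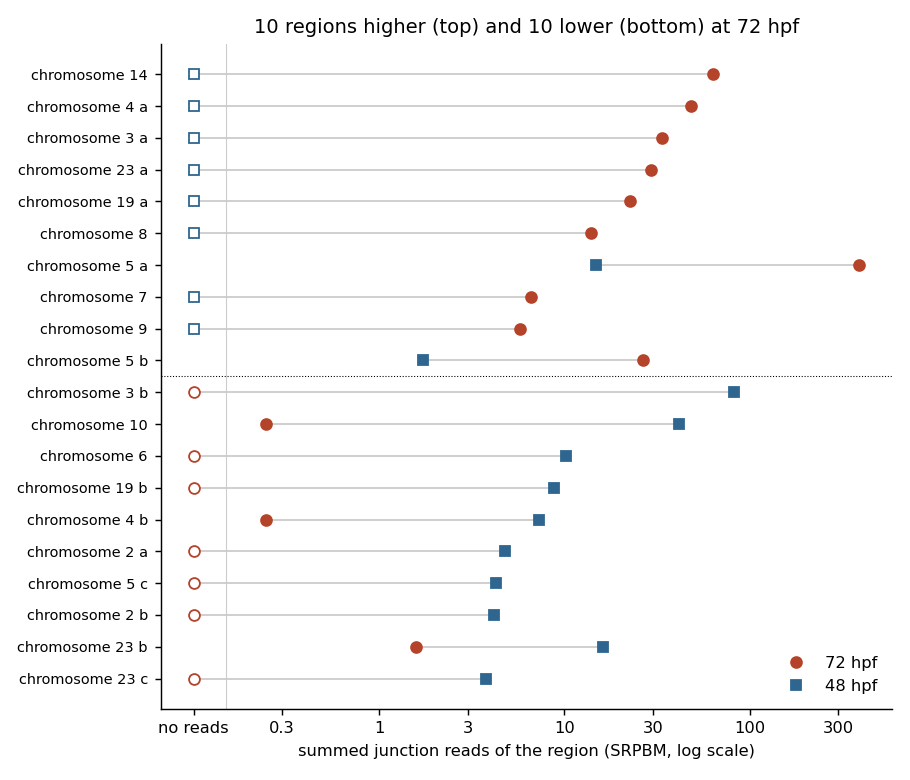
Summed junction reads in SRPBM, on a log scale, at 72 hpf (circles) and 48 hpf (squares) for the 10 higher regions (top) and the 10 lower regions (bottom) ranked first by their interval, with letters for regions of the same chromosome. Open symbols mark ages without reads. The chromosome 5 region with 389 SRPBM at 72 hpf and 14.9 SRPBM at 48 hpf is the only higher one of the 10 with more than 2 SRPBM at 48 hpf.

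One abundant region on chromosome 25 lay within 2-fold. The region chr25:32356968-32393794 had 263 reads at 72 hpf and 243 reads at 48 hpf, a ratio of 1.30 (1.09 to 1.56) with depth scaling, and its log2 ratio turned to -0.15 with scaling to total reads. Its leading circRNA, chr25:32356968-32384589, had 171 reads at 72 hpf and 165 reads at 48 hpf, a ratio of 1.25 (1.00 to 1.55), which also turned with scaling to total reads (log2 ratio -0.21). It was the fourth most abundant at 48 hpf.

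By chromosome, and with depth scaling, junction reads were higher at 72 hpf on 22 of 25, and the interval lay above 1 for 16 and below 1 for 3. With scaling to total reads the ratio was above 1 on 5, and the interval lay above 1 for 3 and below 1 for 14. The extremes were chromosome 5 at 5.26-fold (4.90 to 5.66) and chromosome 14 at 3.23-fold (2.84 to 3.68), and at the other end chromosome 10 with a ratio of 0.527 (0.465 to 0.597) and chromosome 3 with 0.667 (0.609 to 0.731). Without the circRNAs of at least 10 reads that only 1 of the libraries listed, all 25 chromosomes lay between 0.892 and 1.46 with depth scaling. On that scale 21 were above 1, against 1 with scaling to total reads. The positions left out are the most one-sided of these same counts, so narrowing was built in.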

How the data were processed

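Junction reads were whole counts per circRNA position in 1 deposited table per library, unnormalized per the file headers. SRPBM, the authors' score, came from the deposited series table and equalled the count times 1 constant per library. Counts agreed between tables, with 0 mismatches. The submitters' processing notes list the tools edgeR 3.12.1 and BWA 0.7.5a-r405 and give them no role. No source used here names a circRNA caller or a genome build, so positions are printed as deposited and host genes and sequences were not analysed.

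Here the tables at 72 and 48 hpf were joined on position, with unlisted taken as 0 reads. It was set at 3 reads for ratios and calls, and at 1 for the intervals that rank them. For positions and regions without reads at 1 age, a fold marked "at least" is the lower limit of this interval. Regions joined circRNAs with spans of 50 kb or less that overlapped by any length, and reads of overlapping circRNAs were added for earlier ages. Calls needed 10 reads over both libraries and a ratio of 2. Named circRNAs were, by rule, the 10 higher and 10 lower ones listed in both libraries whose interval bound nearest 1 lay farthest from it, the 10 with most reads listed in 1 library, the 5 with most reads, and regions by the same rules. The members, rules and classes were chosen with earlier results of these data known. Scaling alternatives were total junction reads, TMM (edgeR 4.0.16 on the pair of libraries) and reads outside the leading regions. Calculations, tested on simulated data, used Python 3.11.15, numpy 2.4.6, pandas 2.3.3, scipy 1.17.1 and matplotlib 3.10.9, with R 4.3.3.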

Additional observations from a re-analysis of the deposited data

Results flagged for a closer look

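Among the circRNAs with at least 10 reads that only 1 of the libraries listed, 7 positions had 50 or more reads at an age that the comparison did not use. Of those listed at 72 and not at 48 hpf, chr3:31968704-31994174 had 202 reads at 24 hpf, chr8:21058484-21068075 had 67 reads at 8 hpf, and chr16:51147594-51230708 had 74 reads at 4.5 hpf. The short circRNA of chr1:25967354-25967612 had 143 reads at 8 hpf, 67 at 24 hpf and 17 at 72 hpf. On chr2:2490015-2518843 there were 60 reads at 4.5 hpf and 16 at 72 hpf, and on chr3:7385218-7410463 there were 55 at 4.5 hpf, 38 at 8 hpf and 16 at 72 hpf. Of those listed at 48 and not at 72 hpf, chr1:58724086-58783408 had 119 reads at 24 hpf and 93 at 48 hpf. Why these positions were missing from 1 library was not tested.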

How the results depend on the processing

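No paired analysis was possible because each age had 1 library, and no replicate could be left out. For circRNAs listed in both libraries, scaling to total junction reads gave 39 higher and 80 lower and turned the log2 median to -0.26, TMM gave a median of 0.011, and reads outside the leading regions 0.021. Scaling to totals gave 75 higher regions. With at least 5 reads or no minimum, the calls were 384 higher and 156 lower over all circRNAs, 139 and 74 in both libraries, and 332 and 167 for regions. With at least 20 reads they were 68 and 33, 40 and 13, and 50 and 28. Calls at a ratio of 4 were 86 and 36 over all circRNAs, 27 and 8 in both libraries and 63 and 30 for regions. With intervals that exclude 1, 104 circRNAs were higher and 60 lower, 81 regions were higher and 53 lower, and in both libraries 45 were higher and 14 lower. Listings in 1 library were 245 at 72 hpf and 329 at 48 hpf with at least 5 reads, and 28 and 20 with at least 20. With like spans within 1%, 2 of the 46 listed at 48 hpf only had a counterpart. Without the leading regions, the read ratio by span was 0.700 under 0.5 kb, 1.37 from 2 to 5 kb, 1.41 from 5 to 20 kb and 1.49 from 20 to 100 kb. At 5 reads the split follows from the 3 reads set for unlisted positions and from the constants, since all 245 listed at 72 hpf only but 82 of the 329 at 48 hpf only then passed. The scalings shift all ratios alike. Of the named ratios, those of chr25:32356968-32384589 and chr25:32356968-32393794 turned with scaling to total reads, to log2 ratios of -0.21 and -0.15. The others kept their direction under the 3 scalings, which was fixed in advance. The scalings only lower log2 ratios, by at most 0.53, and every other named log2 ratio above 0 was larger than that. Reads outside the leading regions as a scale, regions over all 5 libraries and spans without those regions were added after the data were seen. Depth limits calls near 10 reads, where an interval spans several fold.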

Other observations

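Very short spans were found in both libraries. Spans under 100 bp were listed for 12 circRNAs with 118 reads at 72 hpf and for 14 with 59 reads at 48 hpf, and 1 position was in both. Most had under 5 reads, 9 of the 12 and 12 of the 14, and few circRNAs with so few reads were shared at any span. At 72 and 48 hpf these shares were 12% and 10.8% with exactly 2 reads, and 19.8% and 15.4% with 3 or 4 reads. The circRNA of chr7:29689001-29689068, spanning 67 bp, had 54 reads at 72 hpf and none at the 4 other ages. That of chrKN150442.1:35836-35898, spanning 62 bp, had 28 reads at 72 hpf only. On chr16:42037202-42037225 the span was 23 bp, with 11 reads at 24 hpf and 19 at 48 hpf and none at 72 hpf.

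A pair of neighbouring long positions of chromosome 23 was not listed at 48 hpf, where each had a circRNA of like span within 100 kb with 2 reads. The circRNA of chr23:45460060-45548897 had 0, 7, 20, 0 and 10 reads at 4.5, 8, 24, 48 and 72 hpf, and that of chr23:45486471-45576513 had 22, 0, 41, 0 and 10. On chr20:33653538-33753413 there were 41, 43, 10, 0 and 36 reads at those ages.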
